A study of Mus musculus with 12 samples.

Results

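The miR-34 family was followed across 12 single-colour miRNA arrays of the mouse line 3T3-L1, fibroblasts widely used as a culture model of fat cell formation. Its members were taken by name from the array's design: all entries for mmu-miR-34a, mmu-miR-34b and mmu-miR-34c that do not end in a star, the old mark for the minor arm of a hairpin. This gave 4 of the 611 mouse miRNAs on the array, namely miR-34a, miR-34b-5p, miR-34b-3p and miR-34c. miR-34a and miR-34c are the older names of miR-34a-5p and miR-34c-5p. The rule used names only, though it was set with earlier results of these data known.

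The arrays fell into 4 groups of 3: untreated preadipocytes, cells induced with MDI and called mature adipocytes in the labels, preadipocytes treated with lithium, and lithium-treated preadipocytes induced with MDI. MDI is a mixture of 3-isobutyl-1-methylxanthine, dexamethasone and insulin, applied over 3 days, with insulin kept on for 2 days and left out for the last 2 days up to day 7. Lithium was given as the chloride at 25 mM, and the submitters describe MDI as the model with WNT signalling suppressed and lithium as the model with it activated. Only the MDI schedule is recorded, so groups may also differ in time in culture, and the labels do not state that the replicates were grown separately. The p-values therefore cover only the spread among these samples, which could be technical.

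MicroRNAs are short RNAs that repress messenger RNAs, mainly by pairing of their seed, bases 2 to 8, with the message. The miR-34 miRNAs are best known as direct transcriptional targets of the tumour suppressor p53 and repress messages for cell cycle, survival and metabolic proteins such as Sirt1. In fat tissue miR-34a is known to rise with obesity. Mir34a lies alone in the genome, and Mir34b and Mir34c are made from a shared primary transcript.

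The sequences show which members share a seed and how closely the arms of the clustered hairpins resemble each other. They come from RefSeq on build GRCm38.p6, where 3 of the 4 members had a mature entry. Capitals mark the seed.
miR-34a-5p: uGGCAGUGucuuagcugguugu
miR-34b-5p: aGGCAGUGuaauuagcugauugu
miR-34b-3p: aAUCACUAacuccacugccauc
miR-34c-3p: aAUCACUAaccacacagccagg
The mature positions are chr4:150068473-150068494 on the plus strand for miR-34a-5p, and on the minus strand chr9:51103610-51103632 for miR-34b-5p, chr9:51103574-51103595 for miR-34b-3p and chr9:51103044-51103065 for miR-34c-3p. The last is the miR-34c* of the array, which falls outside the name rule and is used here only as the other arm of the Mir34c hairpin.

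The hairpins of the clustered pair are shown to place both arms, with capitals for the heptamer that is the seed of miR-34a-5p and miR-34b-5p.
Mir34b: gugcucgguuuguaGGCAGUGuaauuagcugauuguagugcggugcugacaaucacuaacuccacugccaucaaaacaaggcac
Mir34c: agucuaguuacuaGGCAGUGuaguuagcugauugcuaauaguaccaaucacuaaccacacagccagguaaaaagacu
The Mir34b hairpin lies at chr9:51103562-51103645 and the Mir34c hairpin at chr9:51103034-51103110, 451 bases apart. Over its 23 bases, miR-34b-5p matched the Mir34c hairpin in an ungapped window at 21, and the 2 differences are A11G and U23C, counted from the 5′ end of miR-34b-5p. Against miR-34b-5p, miR-34a-5p matched 11 of 22 bases counted from base 1 without gaps. Past the seed, a shared stretch sits 1 base later in miR-34b-5p, and counting without gaps scores much of it as mismatched. This count therefore understates how alike the sequences are. The 3p arms of Mir34b and Mir34c matched at 17 of 22 bases and had the same seed, which differs from that of the 5p arms.

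Of 1679 mature mouse entries in the RefSeq table, 4 had the seed of miR-34a-5p, and the other two were these.
miR-449a-5p: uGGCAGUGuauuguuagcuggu
miR-449c-5p: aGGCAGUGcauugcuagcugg
They lie at chr13:113037549-113037570 and chr13:113036008-113036028. The array has entries for miR-449a, miR-449b and miR-449c, a family best known from ciliated epithelium, and none was well above background on any of the 12 arrays. Among the array entries of this seed group, signal was thus detected for the miR-34 entries and not for miR-449.

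Each member had 2 probes of 10 spots. A probe counted as detected when the scanner software placed more than a share of 0.5 of its usable spots well above background, and the brighter of the 2 probes stands for the miRNA. The 3 5p members were detected on all 12 arrays with both probes. miR-34b-3p was near background: its brighter probe was detected on 3 preadipocyte, 1 MDI, 2 lithium and 3 lithium plus MDI arrays, and its dimmer probe on 1 of 12. All 4 members were among the 157 miRNAs tested, a filter that asked for detection throughout at least 1 of the groups. Over all arrays 126 to 177 miRNAs were detected per array. Levels are normalized log2 signals: signals were set relative to the array's own 75th percentile, taken over the 181 probes detected on all arrays, then limited below at a floor of -4.97 and put on the log2 scale. The levels of 2 members cannot be set against each other, since probes differ in brightness for reasons other than amount.

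miR-34a stood at 1.13, 1.36 and 0.38 in the 3 preadipocyte arrays. It was 1.01, 0.95 and 0.69 after MDI, 1.23, 0.00 and -0.31 with lithium, and 0.99, 0.97 and 0.66 with lithium and MDI together. Arrays 2 and 3 of lithium were the lowest of all 12, array 1 of lithium was exceeded only by array 2 of preadipocytes, and each pair of groups overlapped. On array 2 of lithium the miR-34a probe itself lay at the scaling percentile, with an intensity of 409.9.

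The clustered members showed the same picture. miR-34b-5p was -0.35, 0.02 and -1.08 in preadipocytes and -0.65, -0.42 and -0.70 after MDI. Its lithium values were -0.25, -1.39 and -1.63, and its lithium plus MDI values -0.50, -0.65 and -0.58. miR-34c stood at 0.49, 0.89 and -0.29 in preadipocytes, at 0.20, 0.56 and 0.29 after MDI, at 0.63, -0.56 and -0.68 with lithium, and at 0.50, 0.16 and 0.33 with lithium and MDI together. In both, arrays 2 and 3 of lithium were again the lowest of the 12, array 3 of preadipocytes came next, and array 1 of lithium was again exceeded only by array 2 of preadipocytes.

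miR-34b-3p, the other arm of the Mir34b hairpin, was -4.47, -4.86 and at the floor in preadipocytes, and -4.79, -4.19 and -4.48 after MDI. With lithium it was -3.99 on array 1 and at the floor on the other 2 arrays, and with lithium and MDI together -3.87, -4.09 and -4.65. The 3 values at the floor have no order, and 2 of the 3 MDI values came from arrays where the probe was not detected. Its group differences are therefore given only as values.

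**Figure D1:**
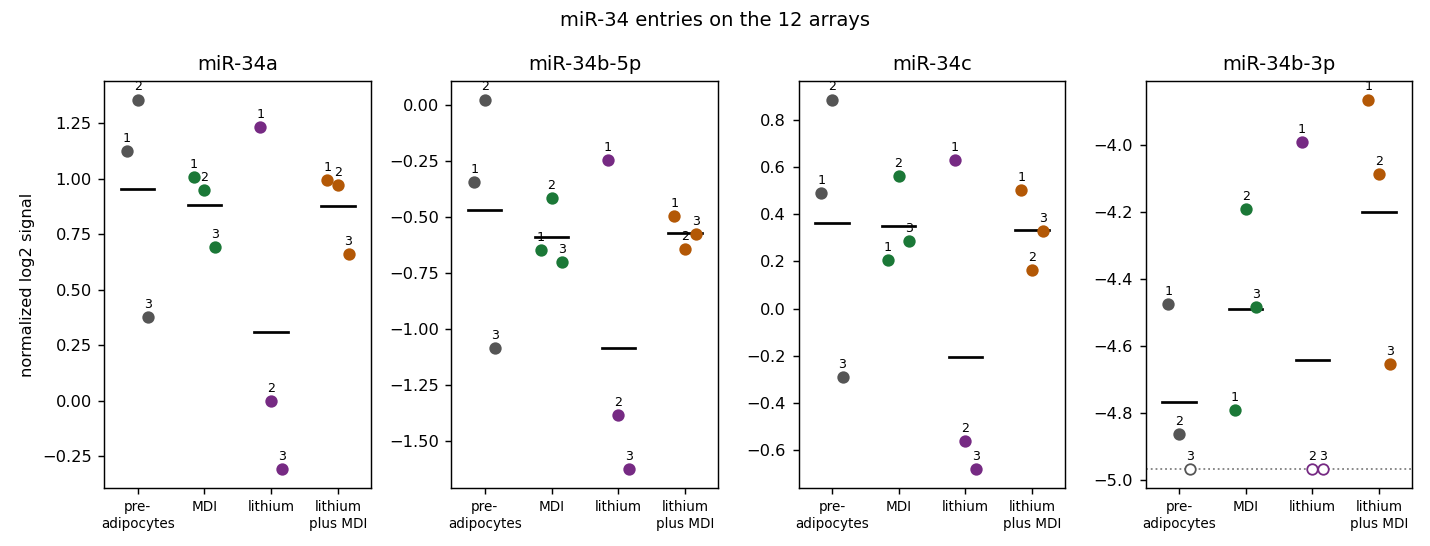
Normalized log2 signal (vertical axis, a scale of its own in each panel) of the 4 miR-34 entries in the 4 groups; points are arrays with their replicate number, bars are means of 3 arrays, and open points on the dotted line lie at the floor of -4.97. In lithium, array 1 sits high and arrays 2 and 3 sit lowest of all for the 3 5p entries, and no pair of groups separates.

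The order of the group means was much alike in the 3 5p members, with lithium lowest. For miR-34a the means were 0.95 ± 0.51 in preadipocytes, 0.88 ± 0.17 in MDI, 0.87 ± 0.19 in lithium plus MDI and 0.31 ± 0.82 in lithium cells (SD, n = 3 each). For miR-34b-5p they were -0.47 ± 0.56 in preadipocytes, -0.57 ± 0.07 in lithium plus MDI, -0.59 ± 0.15 in MDI and -1.09 ± 0.74 in lithium. For miR-34c they were 0.36 ± 0.60, 0.35 ± 0.19, 0.33 ± 0.17 and -0.20 ± 0.72 in preadipocytes, MDI, lithium plus MDI and lithium. No neighbours in these orders differed beyond their spread: the adjusted p-values (limma, Benjamini-Hochberg over 157 miRNAs, here and below) lay between 0.3104 and 0.996.

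Lithium against preadipocytes asks what the activating treatment did to undifferentiated cells. The 3 5p members were lower in lithium by similar amounts, and none passed the adjusted threshold of 0.05. The log2 difference of miR-34a was -0.65 (SE 0.38, 95% interval -1.46 to 0.17, adjusted p = 0.3198), a 1.56-fold lower level. It was -0.62 (SE 0.36, interval -1.40 to 0.17, adjusted p = 0.3198) for miR-34b-5p. For miR-34c it was -0.57 (SE 0.37, interval -1.37 to 0.23, adjusted p = 0.3548). miR-34b-3p differed by 0.13 (SE 0.33). The median difference of all 157 miRNAs in this comparison was -0.07. Against 0 of 4 members, 6.37% of the tested miRNAs passed, 8 of them higher and 2 lower. The groups did not overlap for 29.9% of the tested miRNAs and for none of the members.

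MDI against preadipocytes asks what differentiation without lithium changed. The 5p members differed by -0.07 (SE 0.38, interval -0.88 to 0.74) for miR-34a, -0.12 (SE 0.36, interval -0.90 to 0.66) for miR-34b-5p and -0.01 (SE 0.37, interval -0.81 to 0.79) for miR-34c. Differences of up to about these interval bounds in either direction were not excluded. miR-34b-3p differed by 0.28 (SE 0.33), and the median over all tested miRNAs was 0.10. No member passed (adjusted p = 0.6086 to 0.977), where 3.18% of the tested miRNAs did, 2 higher and 3 lower. The groups did not overlap for 26.8% of the tested miRNAs and for no member.

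The comparison of lithium plus MDI with preadipocytes gave a like result for the 5p members, with differences of -0.08 (SE 0.38) for miR-34a, -0.10 (SE 0.36) for miR-34b-5p and -0.03 (SE 0.37) for miR-34c, beside a median of 0.30 over all tested miRNAs. miR-34b-3p differed by 0.57 (SE 0.33, adjusted p = 0.4271). Of the tested miRNAs 1.27% passed and 17.8% had groups that did not overlap, and no member was among either. These 3 comparisons share the preadipocyte arrays, so their values are not independent.

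Within lithium-treated cells, MDI asks whether induction acts in the presence of lithium. All 4 members were higher in lithium plus MDI than in lithium, and none passed the threshold. The differences were 0.57 (SE 0.38, interval -0.25 to 1.38, adjusted p = 0.3104) for miR-34a, 0.51 (SE 0.36, adjusted p = 0.3207) for miR-34b-5p, 0.54 (SE 0.37, adjusted p = 0.3119) for miR-34c and 0.44 (SE 0.33, adjusted p = 0.3441) for miR-34b-3p. The median over all 157 was 0.39, so the members lay near the middle of all miRNAs. Here limma called 0 of 157 (0%), with 48 at an unadjusted p under 0.05 and none of them a member, and 33.8% of the tested miRNAs had groups that did not overlap.

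Lithium within induced cells left the 5p members at nearly the same mean level. Lithium plus MDI minus MDI was -0.01 (SE 0.38, interval -0.82 to 0.81) for miR-34a, 0.02 (SE 0.36, interval -0.77 to 0.80) for miR-34b-5p, -0.02 (SE 0.37, interval -0.82 to 0.78) for miR-34c and 0.29 (SE 0.33) for miR-34b-3p. The intervals still hold differences of up to about 0.8 either way, and the median over all tested miRNAs was 0.18. limma called 0% of the tested miRNAs, 6 had an unadjusted p under 0.05 without a member among them, and the groups did not overlap for 12.1%.

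MDI against lithium, the comparison of the suppressing with the activating treatment, gave 0.58 (SE 0.38, adjusted p = 0.3429) for miR-34a, 0.50 (SE 0.36, adjusted p = 0.3779) for miR-34b-5p, 0.56 (SE 0.37, adjusted p = 0.3443) for miR-34c and 0.15 (SE 0.33) for miR-34b-3p. The median over all tested miRNAs was 0.21. Again 0% passed by limma, 33 had an unadjusted p under 0.05 and 30.6% had groups that did not overlap, in each case without a member. The interaction, the MDI difference with lithium minus that without it, was 0.64 (SE 0.53, adjusted p = 0.5146) for miR-34a, 0.63 (SE 0.51) for miR-34b-5p, 0.55 (SE 0.52) for miR-34c and 0.16 (SE 0.46) for miR-34b-3p. The median interaction over all tested miRNAs was 0.26. By limma 0% of the tested miRNAs passed here, with 35 at an unadjusted p under 0.05 and no member among them. The MDI response of the family was therefore not shown to differ between cells with and without lithium.

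**Figure D2:**
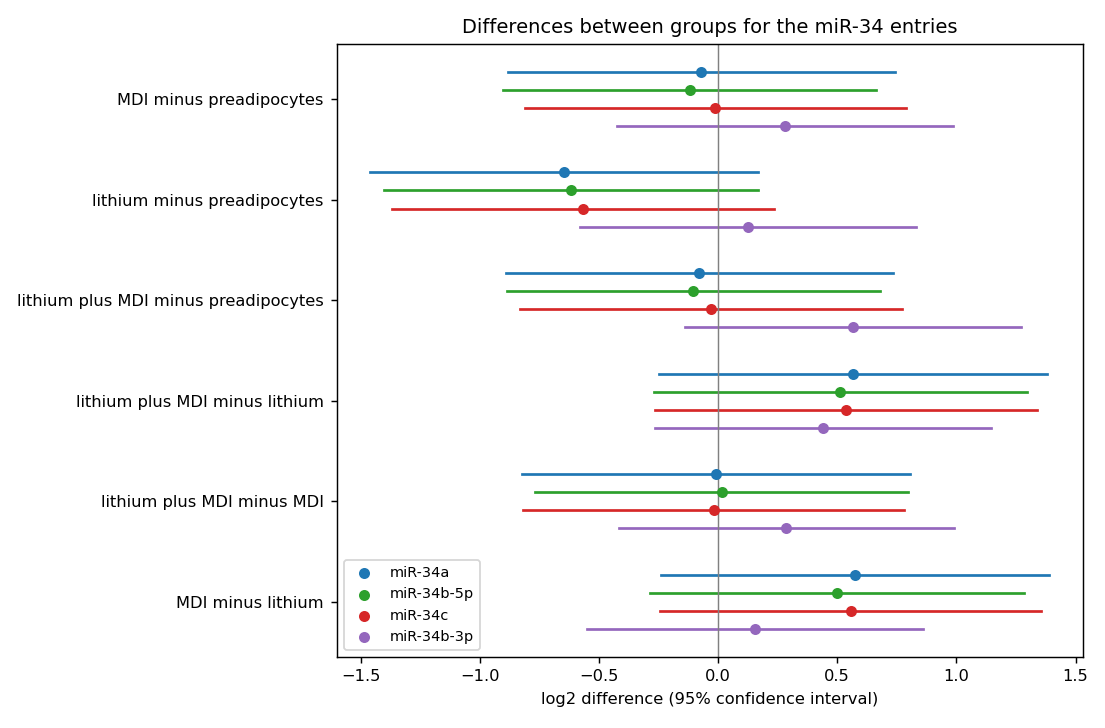
Log2 differences (horizontal axis) of the 4 miR-34 entries in the 6 comparisons between pairs of groups; points are fitted differences and lines are 95% confidence intervals from limma over all 12 arrays. The 3 5p entries lie left of 0 in lithium minus preadipocytes and right of 0 in both comparisons with lithium as the lower group, and each interval includes 0.

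The within-group spread of the 5p members was largest in lithium. Their SDs there were 0.82 for miR-34a, 0.74 for miR-34b-5p and 0.72 for miR-34c, ranks 12, 15 and 16 from the largest of 157, where the median miRNA had 0.27. In lithium plus MDI the SDs were 0.19, 0.07 and 0.17, under the median of 0.37, and in MDI they were 0.17, 0.15 and 0.19, under the median of 0.33. Array 1 of lithium lay apart from arrays 2 and 3 in each of them. That array correlated over all tested miRNAs at a mean r of 0.942 with the other lithium arrays and at 0.960 with the MDI arrays. Array 3 of preadipocytes, the lowest of its group for the 5p members, correlated at 0.939 with its own group and at 0.957 with lithium, and array 3 of lithium plus MDI at 0.924 with its own group and at 0.965 with preadipocytes. These 3 had the lowest correlations with their own group, but they were not the only arrays closer to another group: 6 of the 12 were, among them array 2 of lithium plus MDI, at 0.944 with its own group and 0.966 with MDI. The family's values are given next without array 1 of lithium and then without all 3, which were chosen with earlier results of these data known.

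Without array 1 of lithium, the lithium minus preadipocytes difference passed for miR-34a at -1.11 (SE 0.31, adjusted p = 0.0341) and for miR-34b-5p at -1.04 (SE 0.32, adjusted p = 0.04284). miR-34c had a difference of -0.98 (SE 0.33, adjusted p = 0.06169). In that fit 16.6% of the tested miRNAs passed in this comparison. miR-34a also passed then in lithium plus MDI minus lithium, at 1.03 (SE 0.31, adjusted p = 0.04217) where 20.4% of the tested miRNAs passed, and in MDI minus lithium, at 1.04 (SE 0.31, adjusted p = 0.04648) where 15.9% passed.

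With all 3 arrays left out, which leaves 2 lithium and 2 preadipocyte arrays, all 3 5p members passed as lower in lithium, at -1.40 (SE 0.22, adjusted p = 0.001157) for miR-34a, -1.34 (SE 0.22, adjusted p = 0.00162) for miR-34b-5p and -1.31 (SE 0.23, adjusted p = 0.002298) for miR-34c. In this reduced fit 52.9% of the tested miRNAs passed in the same comparison, with a median difference of -0.28. All 4 members passed as higher in lithium plus MDI minus lithium, beside 56.1% of the tested miRNAs. For miR-34b-3p both lithium arrays left in this fit were at the floor. Its difference there depends on where the floor was put and is not read as a change. The 3 5p members passed as higher in MDI minus lithium, beside 42%, and in the interaction, beside 43.9%. Leaving out the highest lithium and the lowest preadipocyte array widens the lithium difference by construction.

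The lithium difference also depended on the scale on which arrays were made comparable. Before any scaling, the mean intensity of miR-34a was 1194 ± 246 in preadipocytes, 608 ± 113 after MDI, 496 ± 218 with lithium and 686 ± 138 with both (scanner units, SD, n = 3 each), and each preadipocyte array was above each of the other 9. The array-wide factor moved in the same way: the 75th percentile used for scaling ran from 264.5 to 779.7, and its 3 highest values were the preadipocyte arrays. With no scaling the median miRNA differed by -0.69 in lithium minus preadipocytes and by -0.70 in MDI minus preadipocytes. On that scale the 5p members passed as lower in lithium, at -1.34, -1.31 and -1.26 for miR-34a, miR-34b-5p and miR-34c, beside 42.7% of the tested miRNAs (67 lower, and 7 passed as higher). They also passed as lower in MDI, at -0.97, -1.02 and -0.91, beside 38.9% (61 lower, and 1 passed as higher), and as higher in the interaction, beside 38.9% passing in either direction, where the all-miRNA median was 1.04. Relative to the median miRNA the unscaled lithium differences were -0.65, -0.62 and -0.57, and the unscaled MDI differences were -0.27, -0.32 and -0.21.

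Scaling to the 75th percentile over all mouse probes, most of which are at background, gave -1.54, -1.51 and -1.46 for lithium minus preadipocytes, with 47.1% of the tested miRNAs passing as lower (74 lower, and 4 passed as higher) and a median of -0.90. Relative to that median the members again differed by -0.65, -0.62 and -0.57. Under quantile normalization the lithium differences were -0.65, -0.61 and -0.63 and none of the 3 passed. After normexp background correction they were -0.36, -0.52 and -0.37, none passed, and the median miRNA differed by -0.43. Relative to that median the members differed by 0.08, -0.09 and 0.07, so on this setting they lay near the middle of all miRNAs.

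Slide coincided in part with group. All 3 preadipocyte arrays and array 1 of MDI were on the first slide, and the other 8 arrays on the second. With slide as a block, lithium minus preadipocytes was -0.46 (SE 0.70) for miR-34a, -0.71 (SE 0.68) for miR-34b-5p and -0.79 (SE 0.69) for miR-34c, resting on the MDI arrays as the link between slides. Within the first slide, MDI minus preadipocytes was 0.06 (SE 0.52) for miR-34a, -0.18 (SE 0.57) for miR-34b-5p and -0.16 (SE 0.60) for miR-34c. The second slide on its own gave 0.51 (SE 0.43), 0.53 (SE 0.39) and 0.63 (SE 0.39) for MDI minus lithium in the same order, and 0.57, 0.51 and 0.54 for lithium plus MDI minus lithium. None of these passed, and no slide held both preadipocyte and lithium arrays.

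The direction of the lithium difference was the same under each processing setting tried, but part of the settings could not change it. Dropping an array of another group or blocking by replicate number repeats the reported difference by construction. So does changing the miRNAs tested, the floor or the moderation. For miR-34a the lithium difference ran from -1.54 to -0.34 over 28 alternatives, for miR-34b-5p from -1.51 to -0.35 and for miR-34c from -1.46 to -0.31. It passed the threshold in 4, 4 and 3 of them.

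**Figure D3:**
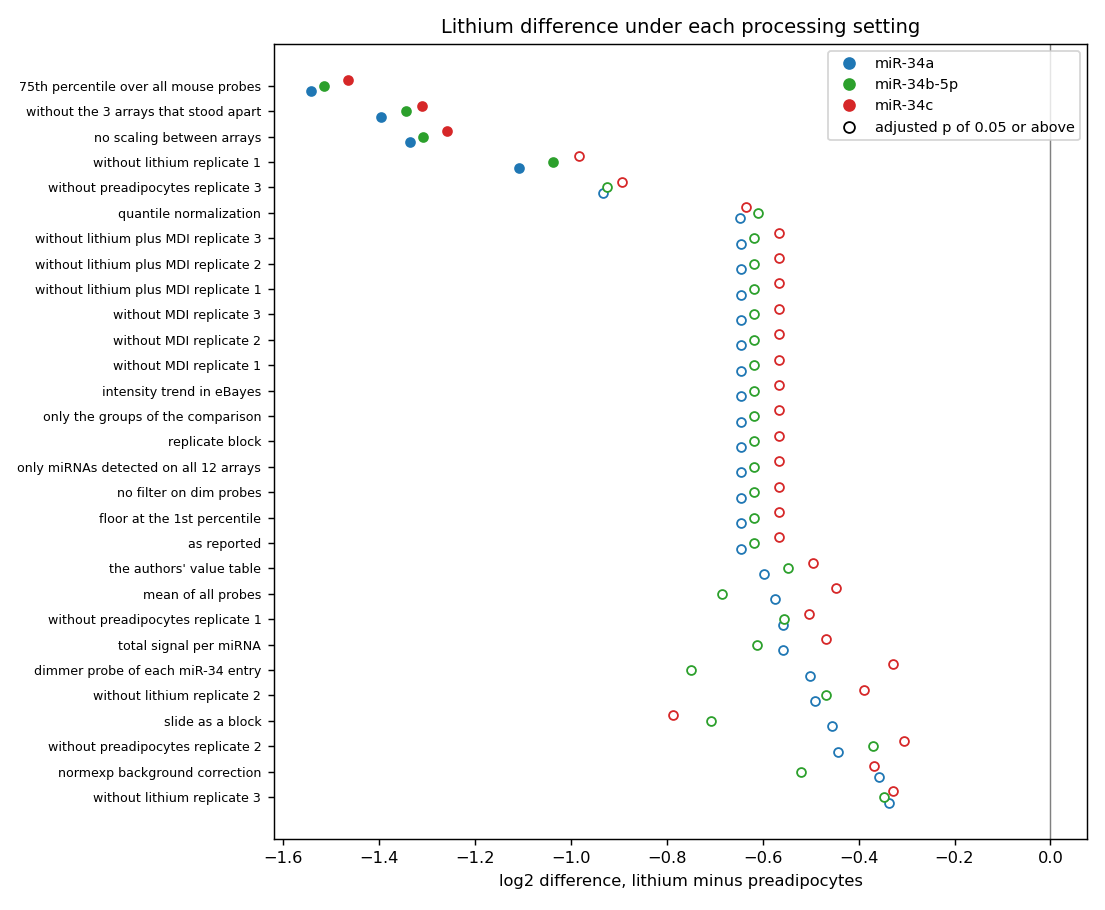
Log2 difference, lithium minus preadipocytes (horizontal axis), of the 3 5p entries under the setting reported here and 28 alternatives (vertical axis); filled points passed an adjusted p of 0.05. The points lie below 0 in each setting, and those past the threshold come from dropping arrays or from scales on which the median miRNA was also lower. Settings that change only arrays of other groups, the replicate block, the miRNAs tested, the floor or the moderation repeat the reported value.

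The 5p members moved together from array to array. Over the 12 arrays Pearson's r was 0.989 between miR-34b-5p and miR-34c, 0.971 between miR-34a and miR-34b-5p and 0.946 between miR-34a and miR-34c, beside a median of 0.124 over all pairs of tested miRNAs. With the group means taken off, so that only the spread within groups was left, the values were 0.990, 0.960 and 0.927, beside a median of 0.105. The other arm of the Mir34c hairpin, miR-34c*, tracked its 5p partner at r = 0.958, and at 0.977 with group means taken off. miR-34b-3p correlated at 0.530 with miR-34b-5p, its own partner arm, with 3 of its values at the floor. These are descriptions over 12 points that share the scaling of each array. Probes of near-identical sequence may also bind each other's target, and how far the probes here do was not tested.

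miR-34c* was -3.65, -3.49 and -4.65 in preadipocytes, -4.04, -3.56 and -3.88 after MDI, -3.22, -4.84 and -4.75 with lithium, and -3.41, -3.99 and -3.90 with both. Its lowest 3 arrays were the same as for the 5p members: arrays 2 and 3 of lithium and array 3 of preadipocytes.

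**Figure D4:**
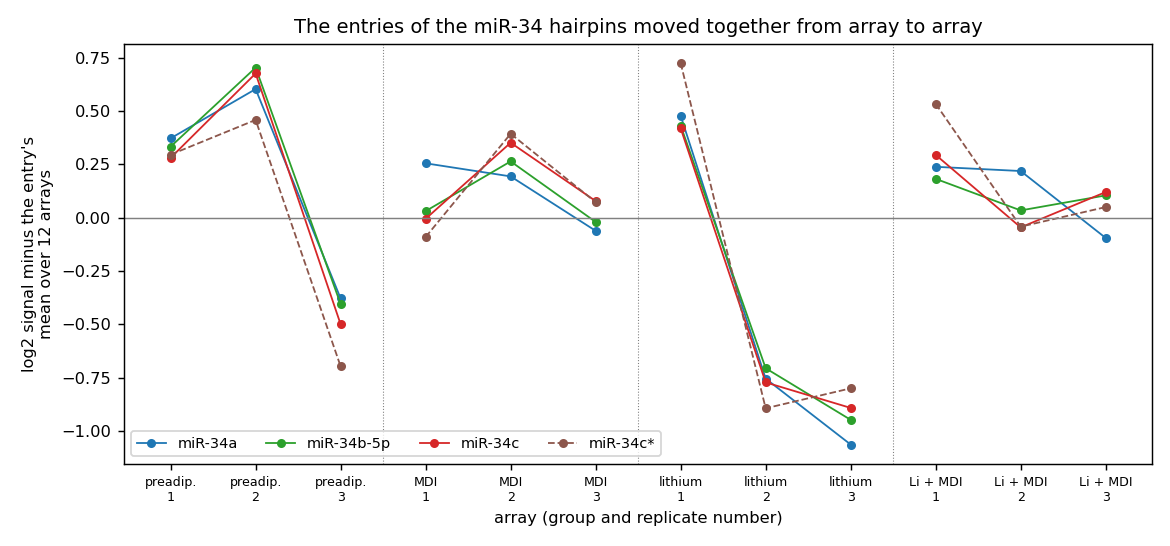
Log2 signal of miR-34a, miR-34b-5p, miR-34c and miR-34c*, each minus its own mean over the 12 arrays (vertical axis), for each array in the 4 groups (horizontal axis); lines join arrays of a group for the eye and carry no order. The 4 entries rise and fall together, with the widest swing inside the lithium group.

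Ratios between members within one array are not altered by dividing the array by a single factor, and only their change between arrays can be read. Quantile normalization can alter them: it gave lithium plus MDI minus MDI differences of -0.26 for miR-34b-5p and -0.07 for miR-34c, where the scaling used here gave 0.02 and -0.02. The log2 ratio of miR-34b-5p to miR-34c was -0.83 ± 0.03 in preadipocytes, -0.94 ± 0.07 after MDI, -0.88 ± 0.06 with lithium and -0.91 ± 0.10 with both (SD, n = 3 each). The ratio of miR-34a to miR-34c was 0.59 ± 0.10, 0.53 ± 0.24, 0.51 ± 0.12 and 0.54 ± 0.24 in the same order. miR-34a over miR-34b-5p gave 1.42 ± 0.08, 1.47 ± 0.16, 1.39 ± 0.08 and 1.45 ± 0.20. An exact permutation test over 369600 splits of the 12 arrays into 4 groups gave p = 0.343, p = 0.958 and p = 0.912 for these 3 ratios in this order, and 0.958 for each after adjustment over the 3. For these brighter probes the groups' ratios were thus not shown to differ. The pooled within-group SD of the log2 ratio was 0.07 for the clustered pair, against 0.47 and 0.49 for the levels of miR-34b-5p and miR-34c.

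**Figure D5:**
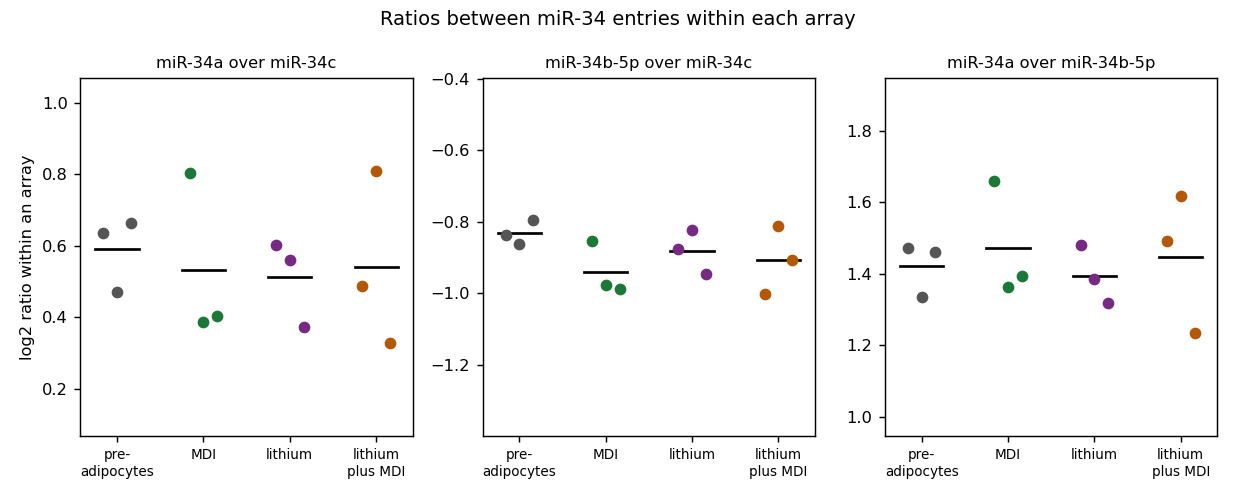
Log2 ratio of 2 miR-34 entries within each array (vertical axis, 1 log2 unit high in each panel) for the 4 groups; points are arrays and bars are means of 3. With the brighter probes shown here, the group means of the clustered pair lie between -0.94 and -0.83. Arrays 2 and 3 of lithium, lowest in level, do not stand apart in any of the 3 ratios.

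Both probes of a member gave the same picture. Their r over the 12 arrays was 0.990 for miR-34a, 0.988 for miR-34b-5p and 0.959 for miR-34c. It was 0.744 for miR-34b-3p, whose dimmer probe lay at the floor on 9 arrays. With the dimmer probe in place of the brighter one, lithium minus preadipocytes was -0.50 for miR-34a, -0.75 for miR-34b-5p and -0.33 for miR-34c. MDI minus preadipocytes changed sign, to 0.025 for miR-34a and 0.20 for miR-34c. The dimmer-probe means of miR-34b-5p and miR-34c were -1.55 and -1.60 in preadipocytes and -1.75 and -1.40 after MDI. They were -2.30 and -1.93 with lithium, and -1.74 and -1.35 with both. The near-constant ratio of this pair was thus not seen with the dimmer probes. On array 1 of MDI, on the first slide, these probes of miR-34b-5p and miR-34c read -1.73 and -1.70. On the second slide they read -1.66 and -1.03 on array 2 of MDI and -1.87 and -1.46 on array 3. There miR-34c read higher than miR-34b-5p on each array. The permutation test over groups was also run with the dimmer probes, and its p-values are not given here. A dependence on slide was not tested.

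The 5 miRNAs with the most similar pattern over the 12 arrays were listed for each member. Besides other miR-34 entries, those of miR-34a were let-7e (r = 0.932) and miR-23b (r = 0.895). Those of miR-34b-5p were let-7e (r = 0.912) and miR-140 (r = 0.870), and for miR-34c miR-140 (r = 0.897) and let-7e (r = 0.886). miR-34b-3p, near background, was most like miR-674* (r = 0.830), miR-15b (r = 0.798), miR-29c (r = 0.793), miR-872 (r = 0.773) and miR-29b* (r = 0.763). Each value is over 12 arrays and among the 157 tested miRNAs.

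Other miRNAs linked to p53 give the pathway's setting. Of 15 miRNAs reported to be transcribed or processed under p53, 14 were on the array and 7 were tested, and 0 passed in any of the 7 comparisons by limma, with at most 3 at an unadjusted p under 0.05 in a comparison. With no scaling, and likewise with scaling over all mouse probes, 2 of the 7 passed in MDI minus preadipocytes and 1 in lithium minus preadipocytes. Of all 157 tested, 62 and 48 passed in MDI minus preadipocytes on these scales, and 74 and 78 in lithium minus preadipocytes. In lithium minus preadipocytes 6 of the 7 lay above 0, with a median of 0.36 beside -0.07 over all tested miRNAs. miR-192 had the highest value in that list, 0.75 (SE 0.27, adjusted p = 0.1194). It turned to -0.05 when scaled over all mouse probes and to -0.41 after normexp. miR-192 was detected on only 6 arrays and counted as not detected on the others, which limits what its differences show. miR-22 had the lowest value, -0.25 (SE 0.30, adjusted p = 0.6278). In MDI minus preadipocytes the list's median was 0.09, from -0.61 (SE 0.42, adjusted p = 0.4285) for miR-107 to 0.50 (SE 0.30, adjusted p = 0.373) for miR-143. With no scaling, where the median of all miRNAs was -0.69, 1 of the 7 lay above 0 in lithium minus preadipocytes, and 6 lay above that median. In that comparison the 5p miR-34 members lay below the median of all miRNAs on both of these scales. After normexp only miR-34b-5p did, at -0.09 from the median, with miR-34a at 0.08 and miR-34c at 0.07.

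Of 5 miRNAs reported to repress the p53 message Trp53 itself, 4 were tested and 0 passed in any comparison by limma, with at most 2 at an unadjusted p under 0.05. On the scales where the median miRNA was itself lower, more passed. In lithium minus preadipocytes 4 of the 4 did with scaling over all mouse probes, beside 78 of all 157. With no scaling 3 did, beside 74 of all 157. In MDI minus preadipocytes these counts were 1 beside 48, and 2 beside 62. All 4 lay below 0 in lithium minus preadipocytes, with a median of -0.41, and 3 of the 4 did under quantile normalization. They ran from -0.63 (SE 0.41, adjusted p = 0.3548) for miR-125a-5p to -0.07 (SE 0.27, adjusted p = 0.8809) for miR-30d. In MDI minus preadipocytes miR-30d was lowest at -0.65 (SE 0.27, adjusted p = 0.2035) and miR-25 highest at 0.61 (SE 0.39, adjusted p = 0.3871).

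The cell type label was checked with marker miRNAs. All 6 miRNAs typical of fibroblasts and mesenchyme (miR-199a-3p, miR-199a-5p, miR-214, miR-21, miR-143 and miR-145) were detected, 5 of them on all 12 arrays. None of the 4 muscle, 6 blood and 3 liver and endothelial markers was detected on any array. Of 8 epithelial markers only miR-205 was detected, on 3 arrays, and of 4 neural markers only miR-128, on 7 arrays. The summed scaled signal of the neural list, in units of each array's 75th percentile, was 0.0265 to 0.0332 in lithium, under the 0.0392 to 0.0862 in preadipocytes. That of the epithelial list overlapped between these groups, at 0.0005 to 0.1997 in lithium and 8.3e-05 to 0.0357 in preadipocytes. Their part in the miR-34 values was not tested. miR-143 and miR-145 stand both in this marker list of fibroblasts and in the p53 list. In bulk RNA, fewer cells of a type and less RNA per cell cannot be told apart.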

How the data were processed

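Total RNA (0.5 ug per array, per the labels' protocols) was labelled with Cy3 and hybridised to single-colour Agilent miRNA arrays. The authors deposited spot intensity values already background-subtracted by Agilent Feature Extraction, without normalization across arrays, as the file headers record. The headers name version 10.5.1.1 and the submitters' processing notes 9.5.3, a mismatch that could not be settled. The authors also deposited a log2 value table, whose columns followed the log2 total signal per miRNA (r of 0.997 or above); their medians were 0.00175 to 0.0958. Its centring and floor are not given in the sources used here, and it served as an alternative. Outlier spots were left out and the spots of a probe averaged. Arrays were scaled to the 75th percentile of 181 probes detected on all arrays, floored at the 5th percentile of scaled signals of detected probes and log2-transformed. No spot was saturated.

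limma 3.58.1 in R 4.3.3 was fitted to 157 miRNAs with 1 mean per group and no block, using the 12 arrays together (two-sided, Benjamini-Hochberg over 157, threshold 0.05), after a test on simulated data. The number of arrays limits the precision, with a median SE of 0.335. All miR-34 entries were named, together with up to 2 miRNAs per list and comparison at the ends of its range and the 5 miRNAs most like each member. Members, lists and tests were chosen with earlier results of these data known. Alternatives changed the scaling, background correction, floor, probe filter, probe summary, slide, replicate block, arrays used and moderation. The first-slide and dimmer-probe fits and the ratios were added after seeing the data. Same-numbered arrays of different groups deviated with r of -0.482 to 0.473, over 0.1 in 9 of 18 pairs, so the numbers were not taken to pair the samples. No pair of arrays held identical values. Figures were drawn with matplotlib 3.10.9.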

Additional observations from a re-analysis of the deposited data

How the results depend on the processing

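Over 789 alternative values of the 28 member differences, 679 kept their direction and side of the threshold, 29 newly passed, 0 lost a call and 81 changed sign. Part of the 679 repeat the reported difference by construction, such as fits without an array of a group outside the comparison. Lithium minus preadipocytes, lithium plus MDI minus lithium, MDI minus lithium and the interaction kept their direction for the 3 5p members under each alternative that gave a value. The member differences that changed sign were near 0 or of miR-34b-3p. List miRNAs are outside these counts, and their sign changes are given below. For sign changes the cause was not tested. miR-34b-3p has no value when tests were limited to miRNAs detected on all 12 arrays.

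The number of miR-34 entries past the threshold was 0 in each comparison as reported. It was 3 for lithium minus preadipocytes with scaling over all mouse probes, 3 with no scaling and 3 when array 3 of preadipocytes, array 1 of lithium and array 3 of lithium plus MDI were dropped together. Of all tested miRNAs, 47.1% and 42.7% passed as lower on these 2 scales, and 52.9% passed without those 3 arrays. With no scaling, 3 entries passed in MDI minus preadipocytes, where 38.9% of all tested passed as lower. In the interaction 3 entries also passed with no scaling, beside 38.9% of all tested. Dropping those 3 arrays gave 4 entries for lithium plus MDI minus lithium (56.1% of all tested), 3 for MDI minus lithium (42%) and 3 for the interaction (43.9%). The 4 include miR-34b-3p, for which both lithium arrays left were at the floor. Leaving out 1 array at a time gave 0 to 2 for lithium minus preadipocytes, 0 to 1 for lithium plus MDI minus lithium and 0 to 1 for MDI minus lithium, each time with the highest count without array 1 of lithium. Without that array 16.6%, 20.4% and 15.9% of all tested miRNAs passed in these comparisons.

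With replicate number as a block, no miR-34 entry passed in any comparison (0 of 4), and lithium minus preadipocytes had adjusted p-values of 0.2193, 0.2513 and 0.3119 for miR-34a, miR-34b-5p and miR-34c by limma. The numbers were not shown to pair the samples. The block moved the count over all tested miRNAs from 0 to 16 for lithium plus MDI minus lithium and from 0 to 4 for the interaction.

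Counts over all 157 miRNAs moved more. The 10 of lithium minus preadipocytes ran from 2 (without array 3 of lithium) to 33 (without array 3 of preadipocytes) when 1 array was left out, and from 0 (normexp, or no filter) to 83 (without the 3 arrays) otherwise. The 5 of MDI minus preadipocytes ran from 0 to 18 (without array 3 of lithium plus MDI) and from 0 to 62 (no scaling). The 2 of lithium plus MDI minus preadipocytes ran from 0 to 36 (without array 3 of lithium plus MDI) and from 0 to 44 (scaling over all mouse probes).

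Log2 differences that changed sign are given by setting. Quantile normalization gave 0.029 for miR-34a and -0.060 for miR-34b-3p in MDI minus preadipocytes, -0.059 for miR-34b-3p, 0.16 for miR-22 and 0.016 for miR-30d in lithium minus preadipocytes, -0.26 for miR-34b-5p in lithium plus MDI minus MDI, and -0.0015 for miR-34b-3p in MDI minus lithium. Scaling over all mouse probes gave -0.33 for miR-34b-3p, -0.20 for miR-25 and -0.31 for miR-143 in MDI minus preadipocytes, -0.42 for miR-34b-3p and -0.054 for miR-192 in lithium minus preadipocytes, -0.28 for miR-34b-3p in lithium plus MDI minus preadipocytes, and -0.22 for miR-34b-5p in lithium plus MDI minus MDI. No scaling gave -0.16 for miR-34b-3p, -0.29 for miR-25 and -0.40 for miR-143 in MDI minus preadipocytes, -0.21 for miR-34b-3p in lithium minus preadipocytes, and 0.17 for miR-34a and 0.16 for miR-34c in lithium plus MDI minus MDI.

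Normexp background correction gave 0.14 for miR-34a, -0.34 for miR-34b-3p and 0.10 for miR-34c in MDI minus preadipocytes, and -0.54 for miR-34b-3p, 0.074 for miR-22 and -0.41 for miR-192 in lithium minus preadipocytes. It gave 0.14 for miR-34a, -0.42 for miR-34b-3p and 0.072 for miR-34c in lithium plus MDI minus preadipocytes, and 0.0004 for miR-34a, -0.082 for miR-34b-3p and -0.013 for miR-34b-5p in lithium plus MDI minus MDI. The mean of all probes gave 0.10 in MDI minus preadipocytes and 0.11 in lithium plus MDI minus preadipocytes for miR-34c, and 0.0058 for miR-34a and 0.015 for miR-34c in lithium plus MDI minus MDI. The scanner's total signal gave 0.040 for miR-34a and 0.12 for miR-34c in MDI minus preadipocytes, -0.13 for miR-34b-5p in lithium plus MDI minus MDI, and -0.38 for miR-34b-3p in the interaction. The authors' deposited table gave 0.11 for miR-34c in MDI minus preadipocytes, 0.27 for miR-22 and 0.069 for miR-30d in lithium minus preadipocytes, and -0.33 for miR-34b-5p in lithium plus MDI minus MDI.

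The dimmer probes gave 0.025 for miR-34a and 0.20 for miR-34c in MDI minus preadipocytes, 0.044 and 0.25 in lithium plus MDI minus preadipocytes, 0.020 and 0.048 in lithium plus MDI minus MDI, and -0.043 for miR-34b-3p in MDI minus lithium. Slide as a block gave 0.056 for miR-34a and -0.022 for miR-34b-3p in MDI minus preadipocytes, as did the first slide on its own. It gave -0.33 for miR-34b-3p, 0.47 for miR-22 and 0.32 for miR-30d in lithium minus preadipocytes, and 0.11 for miR-34a in lithium plus MDI minus preadipocytes. It gave 0.055 for miR-34a and -0.015 for miR-34b-5p in lithium plus MDI minus MDI, as did the second slide on its own. Without those 3 arrays, lithium minus preadipocytes was -0.30 for miR-34b-3p and 0.041 for miR-30d, and lithium plus MDI minus MDI was 0.10 for miR-34a.

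When 1 array was left out, MDI minus preadipocytes ran from -0.36 to 0.13 for miR-34a, -0.43 to 0.13 for miR-34b-5p and -0.34 to 0.25 for miR-34c. Lithium plus MDI minus preadipocytes ran from -0.37 to 0.12, -0.41 to 0.14 and -0.36 to 0.23 in the same order, and lithium plus MDI minus MDI from -0.10 to 0.10, -0.040 to 0.10 and -0.10 to 0.087. For miR-34b-3p, lithium minus preadipocytes ran from -0.20 to 0.29, MDI minus lithium from -0.0084 to 0.48 and the interaction from -0.0063 to 0.49. miR-192, detected on only 6 arrays, passed in lithium minus preadipocytes without array 1 of lithium, at 1.03.

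Signal over background limits miR-34b-3p, whose intensity was 9.558 to 23.34 on the 12 arrays, while the 5p members were far above background.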
